A study of Mus musculus with 24 samples.

Results

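The ID family of the mouse comprises Id1, Id2, Id3 and Id4, and these 4 genes were followed across jaw tissue of embryos that lack the TGF-beta type I receptor Alk5 (gene symbol Tgfbr1) in the neural crest and across their control littermates. The members were chosen by gene symbol in the array annotation, which gave 4 of 18193 genes, and 4 of the 13942 genes that were tested. They were represented by 8 probe sets, and the brightest probe set (by its mean over the 24 arrays) stood for its gene. ID proteins carry a helix-loop-helix domain for pairing with other proteins but no basic region for binding DNA. They hold E proteins, and through them tissue-specific basic helix-loop-helix (bHLH) factors, away from DNA, and in many cell types they are linked to the undifferentiated, dividing state. Id1, Id2 and Id3 are textbook targets of bone morphogenetic protein (BMP) signalling through SMAD1 and SMAD5, and TGF-beta acts on them in a direction that depends on the cell type.

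The 8 groups, of 3 arrays each, were the mutant and control distal mandible, the mutant and control proximal mandible, the mutant and control distal maxilla, and the mutant and control proximal maxilla, all at embryonic day 14.5 on a C57B6 background. Animals that carried Wnt1-Cre and were heterozygous for floxed Alk5 were crossed with partners homozygous for it, so every littermate inherited at least 1 floxed allele. The labels do not give the genotype of the controls beyond that word. Wnt1-Cre acts in the neural crest lineage, so epithelium, endothelium, blood and muscle in the tissue keep the receptor. The design text states that mutants were picked by their cleft palate and calvarial defect, and the labels call each compartment bone. Total RNA (5 µg per sample) was made into biotin-labelled cRNA for a single-colour array. Values are log2 signals after RMA, the authors' normalization, and a level below the 40th percentile of an array (a log2 signal of 6.33 to 6.47) was treated as low.

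Array medians lay between 7.03 and 7.12, and arrays correlated with the others of their group at 0.9882 to 0.9965 on average. Of the 24 arrays, 6 correlated best with another group. These were control distal maxilla 1 and 2 and all 3 mutant proximal maxilla arrays, and mutant distal maxilla 3. The mutant maxilla arrays numbered 3 (distal and proximal) were closest to mutant mandible groups, and the changes of the ID genes in the mutant maxilla are also given below without both. Control distal maxilla array 3 was kept in that setting, although it was the lowest control array there for Id1, Id3 and Id4. The setting thus takes a low array out of the mutants alone, and a larger difference in the distal maxilla may follow from that. The mutant arrays numbered 1 and 3 held both Xist (11.15 to 12.79) and Y-linked transcripts (8.86 to 9.74), whereas mutant arrays numbered 2 and control arrays numbered 1, 2 and 3 held either one or the other. Every mutant array thus held Xist (11.15 to 13.39), while control arrays numbered 2 and 3 had it at 6.23 to 7.49. Sex markers were therefore not balanced between the genotypes. Each genotype and number had a single pattern in all 4 regions, so the regions of a number may share an embryo or a pool, which the labels do not say. The labels do not say that arrays came from separate embryos, so p-values measure the spread between these arrays, which may be technical. Tgfbr1 averaged 12.36, 12.42, 12.41 and 12.44 in mutants and 12.14, 12.09, 12.03 and 12.34 in controls (distal mandible, proximal mandible, distal maxilla and proximal maxilla). Where its probes lie relative to the deleted exon is not known here, so these levels do not check the labels. It was called higher in mutants in the mean over regions (0.26, adjusted p = 0.000146), in the proximal mandible (0.33, adjusted p = 0.0115) and in the distal maxilla (0.38, adjusted p = 0.0298). Among bone markers, Sp7 averaged 9.57 in mutants and 10.41 in controls, and Dmp1 averaged 6.85 in mutants and 10.80 in controls.

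Promoter sequence was available for 3 of the 4 members, Id2, Id3 and Id4, and is shown because BMP-activated SMADs act on ID genes through short GC-rich and GTCTG-type elements. The 250 bases upstream of each transcription start, in RefSeq assembly GRCm38.p6, are printed 5′ to 3′ on the strand of the gene. Capitals mark GGCGCC, a GC-rich element bound by SMAD1 and SMAD5, and GTCTG or its reverse complement CAGAC, the core of the SMAD-binding element.
Id2, chr12:25096093-25096342, minus strand: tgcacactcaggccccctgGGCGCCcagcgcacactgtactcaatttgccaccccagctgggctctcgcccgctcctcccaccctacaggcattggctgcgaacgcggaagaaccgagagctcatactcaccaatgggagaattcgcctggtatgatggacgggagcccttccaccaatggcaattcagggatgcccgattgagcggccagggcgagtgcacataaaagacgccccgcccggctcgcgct
Id3, chr4:136143572-136143821, plus strand: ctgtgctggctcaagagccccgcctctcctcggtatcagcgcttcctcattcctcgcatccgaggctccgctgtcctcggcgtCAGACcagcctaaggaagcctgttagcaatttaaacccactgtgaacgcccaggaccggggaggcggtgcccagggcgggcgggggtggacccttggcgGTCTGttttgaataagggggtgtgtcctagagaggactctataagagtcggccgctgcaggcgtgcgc
Id4, chr13:48260866-48261115, plus strand: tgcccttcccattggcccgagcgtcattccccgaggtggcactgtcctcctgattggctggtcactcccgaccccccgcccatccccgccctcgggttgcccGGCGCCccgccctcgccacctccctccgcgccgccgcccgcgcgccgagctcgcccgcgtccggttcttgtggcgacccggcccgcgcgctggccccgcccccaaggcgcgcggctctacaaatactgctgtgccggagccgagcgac
Searched on both strands, GGCGCC was found 1 time in the Id2 window, 231 bases before the start, and 1 time in the Id4 window, 148 bases before it. Of 32851 promoter windows of the same length, 9.59% held it. GTCTG or CAGAC was found 2 times in the Id3 window, 167 and 68 bases before the start, and 42.2% of all windows held it. The GC box GGGCGG, a site for SP-family factors, was found 1 time for Id2, 2 times for Id3 and 5 times for Id4, and 32.7% of windows held it. An E-box, CANNTG, the motif bound by the bHLH factors that ID proteins oppose, was found 1 time for Id2, 196 bases before the start, and 66.2% of windows held it. None of these windows held the palindrome GTCTAGAC (0.167% of windows), the TATA box TATAAA (12.4%) or the cAMP response element TGACGTCA (1.55%). The GC box matches of Id3 start 94 and 90 bases before the start and share letters. A match describes the sequence and was not tested as a binding site.

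Id1, Id2 and Id3 were higher in the mutant jaw when the 4 regions were averaged, by 1.30-fold, 1.20-fold and 1.23-fold, and Id4 did not pass the test. With the 4 regions of each genotype and number averaged first, 3 values against 3, the adjusted p was 0.00346 for Id1 and 0.0329 for Id3, and Id2 did not pass (0.0552). In bulk tissue, fewer cells of a type and less RNA per cell cannot be told apart. The change of Id1 was larger in the mandible than in the maxilla, Id1, Id2 and Id3 each lay above control in the mean of each region, and Id4 differed between the jaws and between the ends of the mandible. All 4 genes were measured above the low level on each of the 24 arrays.

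**Figure D1:**
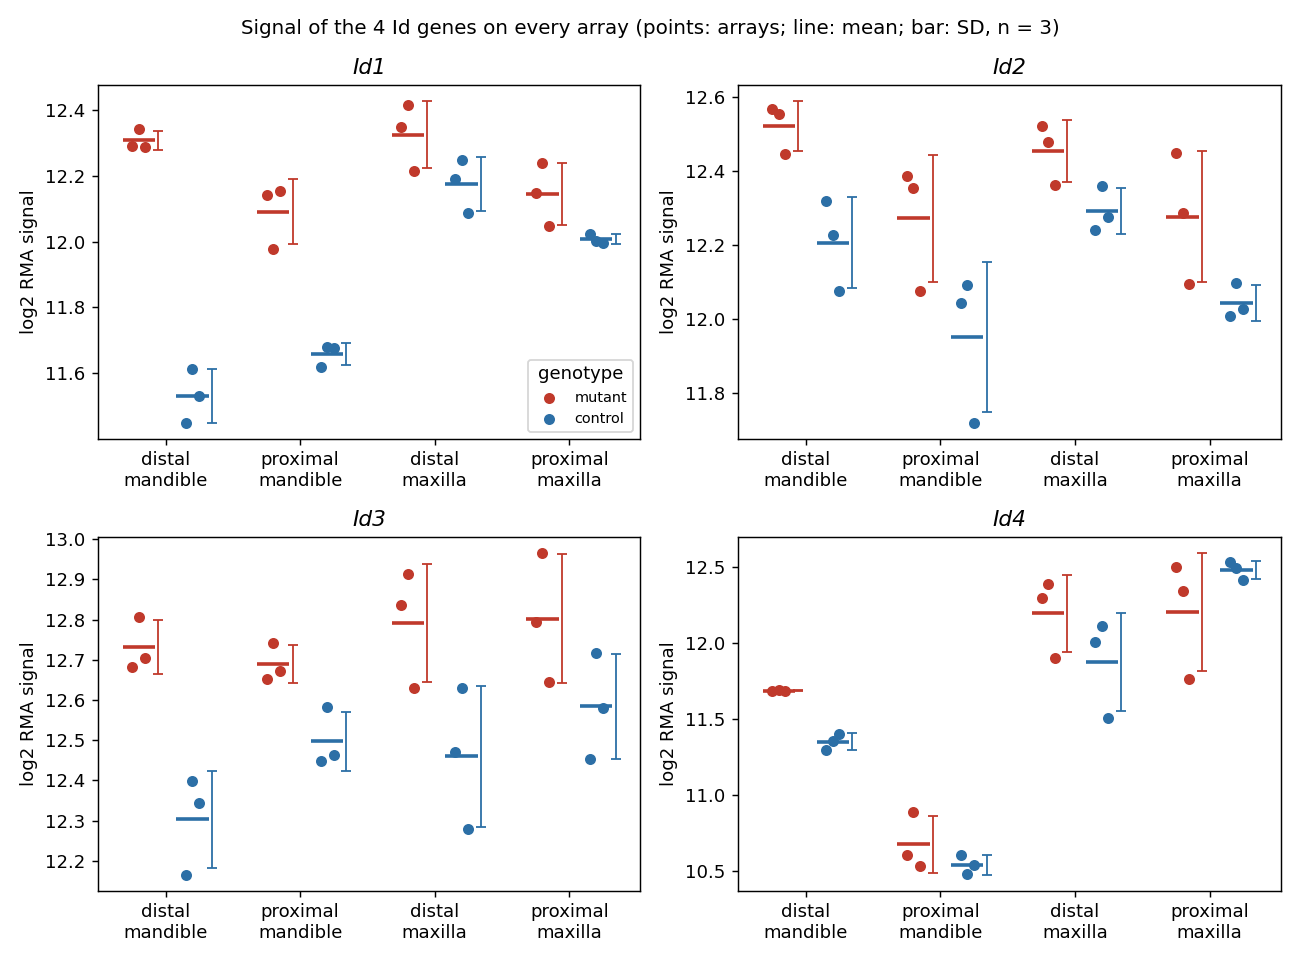
Log2 RMA signal of Id1, Id2, Id3 and Id4 on every array, by region (x axis), with the mutant arrays in red to the left of the control arrays in blue (points: arrays, line: group mean, bar: SD, n = 3). The Id1 arrays of the mutant distal mandible sit between 12.29 and 12.34, above the control arrays at 11.45 to 11.61, while the vertical axes differ between genes and do not compare their levels.

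Id1, the member most often used as a readout of BMP signalling, had 12.29, 12.34 and 12.29 in the mutant distal mandible, against 11.45, 11.61 and 11.53 in the control distal mandible. The groups lay apart by more than the spread within either. The share of all genes whose groups lay apart is not given, so such gaps, here and below, describe the values only. The log2 change was 0.78 ± 0.06 (SE), 1.71-fold, with an adjusted p of 5.52e-07 (limma, Benjamini-Hochberg over all genes, as for every adjusted p below), and by the size of its moderated statistic it ranked 1 of 13942 genes, although by the size of the change it ranked 662. Over the alternatives tried, that rank lay between 1 and 40.
In the proximal mandible the mutant arrays had 12.14, 11.98 and 12.15 and the control arrays 11.62, 11.68 and 11.68, a log2 change of 0.43 ± 0.06 (adjusted p = 6.93e-05). Here too every mutant array was above every control array.
Distal maxilla arrays had 12.35, 12.41 and 12.21 in mutants and, in controls, 12.19, 12.25 and 12.09, a difference of 0.15 ± 0.06 with an adjusted p of 0.170, and the groups overlapped.
Proximal maxilla arrays had 12.15, 12.24 and 12.05 in mutants and, in controls, 12.024, 12.003 and 11.996, a difference of 0.14 ± 0.06 with an adjusted p of 0.153. Each mutant array was above each control array there, but by little.
The mean over the regions was 0.37 ± 0.03 (adjusted p = 5.53e-08). Without the mutant maxilla arrays numbered 3, the Id1 difference in the distal maxilla was 0.21 with an adjusted p of 0.0444, and in the proximal maxilla it was 0.19 (adjusted p = 0.0806). Control distal maxilla array 3, the lowest of its group for Id1 (12.09), was kept.

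The genotype effect on Id1 was larger in the mandible than in the maxilla by 0.46 ± 0.06 on the log2 scale (adjusted p = 0.000234). Of all genes tested, 2.45% passed the test of that jaw difference in the same direction, and Id1 was the 1 member that did. In mutants the jaws differed by -0.04 ± 0.04, mandible minus maxilla (adjusted p = 0.589), with means of 12.31 and 12.09 in the mandible (distal and proximal) and 12.33 and 12.15 in the maxilla. In controls they differed by -0.50 ± 0.04 (adjusted p = 9.76e-08), with 11.53 and 11.66 in the mandible and 12.18 and 12.01 in the maxilla. Both mutant mandible means lay above both control mandible means. These comparisons share arrays, and their values stand side by side without a further test.

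Id2 was read by 3 probe sets. The brightest had 12.57, 12.55 and 12.45 in the mutant distal mandible, against 12.32, 12.23 and 12.08 in the control distal mandible, a log2 change of 0.32 ± 0.10 (adjusted p = 0.0358) with the groups apart. In the proximal mandible, mutant arrays had 12.39, 12.36 and 12.08 and control arrays 12.04, 12.09 and 11.72, a change of 0.32 ± 0.10 (adjusted p = 0.0269), although the lowest mutant array was below the highest control array. Distal maxilla values were 12.52, 12.48 and 12.36 in mutants and 12.24, 12.36 and 12.28 in controls, a difference of 0.16 ± 0.10 (adjusted p = 0.347), with the lowest mutant array (12.363) just above the highest control array (12.3601).
The brightest Id2 probe set passed the test in the mandible and not in the maxilla. The test of the difference between jaws gave 0.12 ± 0.10 with an adjusted p of 0.539, so the jaws were not shown to differ for Id2.
Proximal maxilla values were 12.45, 12.29 and 12.10 in mutants and 12.01, 12.10 and 12.03 in controls, a difference of 0.23 ± 0.10 (adjusted p = 0.136), and the ranges overlapped. The mean over regions was 0.26 ± 0.05 (adjusted p = 0.000405).
The Id2 calls within the mandible depended on single arrays. In the distal mandible the adjusted p was between 0.0749 and 0.164 when control array 2, control array 3, mutant array 1 or mutant array 2 was left out. In the proximal mandible it was between 0.107 and 0.174 without control array 3, mutant array 1 or mutant array 2. With the Xist level as a covariate it was 0.0770 in the distal and 0.0628 in the proximal mandible. Array weights gave 0.0527 proximally, and a fit on the arrays compared gave 0.117. Without the mutant maxilla arrays numbered 3, the Id2 difference was 0.21 in the distal maxilla (adjusted p = 0.220) and 0.32 in the proximal maxilla (adjusted p = 0.0710).

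The second Id2 probe set showed a more even change. Its mutant and control arrays lay apart in each of the 4 regions, with 12.45, 12.44 and 12.32 in the mutant distal mandible against 11.84, 12.03 and 11.90 in the control distal mandible, and 12.24, 12.25 and 12.19 in the mutant proximal maxilla against 11.75, 11.81 and 11.80 in the control proximal maxilla. The log2 changes were 0.48, 0.39, 0.42 and 0.44 in the distal mandible, proximal mandible, distal maxilla and proximal maxilla, with adjusted p values over 29094 probe sets of 0.00146, 0.0038, 0.0196 and 0.00415. The third probe set was dim, with a mean of 8.02 over all arrays, and its groups lay apart in the distal maxilla, where the difference was 0.55. In how many regions Id2 passed thus depended on the probe set. The mean of the probe sets of Id2 gave an adjusted p of 0.0371 in the distal maxilla and 0.0378 in the proximal maxilla.

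Id3 had 12.68, 12.81 and 12.70 in the mutant distal mandible against 12.17, 12.40 and 12.34 in the control distal mandible, a log2 change of 0.43 ± 0.09 (adjusted p = 0.00426) with the groups apart. In the proximal mandible the values were 12.65, 12.74 and 12.67 in mutants and 12.45, 12.58 and 12.46 in controls, a difference of 0.19 ± 0.09 (adjusted p = 0.172) with the groups also apart. Blocking on the replicate number gave an adjusted p of 0.0300 there.
The numbers were read as pairs of both genotypes in the mandible and the distal maxilla, which the labels do not state. That reading depends on leaving out sex-linked genes, a choice made after the blocked calls had been seen. The blocked values are given where they change a call.
The Id3 arrays of the distal maxilla had 12.84, 12.91 and 12.63 in mutants and, in controls, 12.47, 12.63 and 12.28. The difference was 0.33 ± 0.09 (adjusted p = 0.0603), and the ranges overlapped by the lowest mutant array. With the block the adjusted p was 0.00532, with a random block it was 0.0408, and without the mutant maxilla arrays numbered 3 the difference was 0.41 with an adjusted p of 0.0130. Control distal maxilla array 3, also the lowest of its group (12.28), was kept in that last setting. Proximal maxilla values were 12.79, 12.97 and 12.65 in mutants and 12.45, 12.72 and 12.58 in controls, a difference of 0.22 ± 0.09 (adjusted p = 0.143), with overlapping ranges, and without the mutant maxilla arrays numbered 3 it was 0.30 (adjusted p = 0.0683). In that region the numbers were not read as pairs of both genotypes. The mean over regions was 0.29 ± 0.05 (adjusted p = 7.24e-05). In the order of the group means all 4 mutant groups of Id3 stood above all 4 control groups, and 1 of the 7 steps between neighbours exceeded the pooled SD of 0.12.

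Id4, which in other tissues also marks neural progenitors, had 11.69, 11.70 and 11.69 in the mutant distal mandible and 11.30, 11.36 and 11.41 in the control distal mandible. The groups lay apart, with a difference of 0.34 ± 0.16 and an adjusted p of 0.170 from a fit that shares its spread across the 8 groups. Fitted on these 2 groups alone, the adjusted p was 0.00183, and with array weights it was 0.0138.
In the proximal mandible it had 10.61, 10.89 and 10.54 in mutants and 10.61, 10.48 and 10.54 in controls, a difference of 0.13 ± 0.16 (adjusted p = 0.627). Distally in the maxilla it had 12.30, 12.39 and 11.91 in mutants and 12.01, 12.11 and 11.51 in controls, a difference of 0.32 ± 0.16 (adjusted p = 0.264), which was 0.46 (adjusted p = 0.0320) without both mutant maxilla arrays numbered 3. That setting kept control distal maxilla array 3, also the lowest of its group (11.51). Proximally in the maxilla Id4 had 12.50, 12.35 and 11.76 in mutants and 12.53, 12.49 and 12.42 in controls, a difference of -0.28 ± 0.16 (adjusted p = 0.293). The proximal value rested on mutant array 3, and without both mutant maxilla arrays numbered 3 it was -0.06 (adjusted p = 0.879).
Its mean change over regions, 0.13 ± 0.08, had an adjusted p of 0.219, and array weights gave 0.0473. Without mutant proximal maxilla array 3 the mean was 0.18 (adjusted p = 0.0352), and without both mutant maxilla arrays numbered 3 it was 0.22 (adjusted p = 0.00691). The 3 probe sets of Id4 gave the same direction in the distal mandible, distal maxilla and, with mutant array 3 included, the proximal maxilla.

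**Figure D2:**
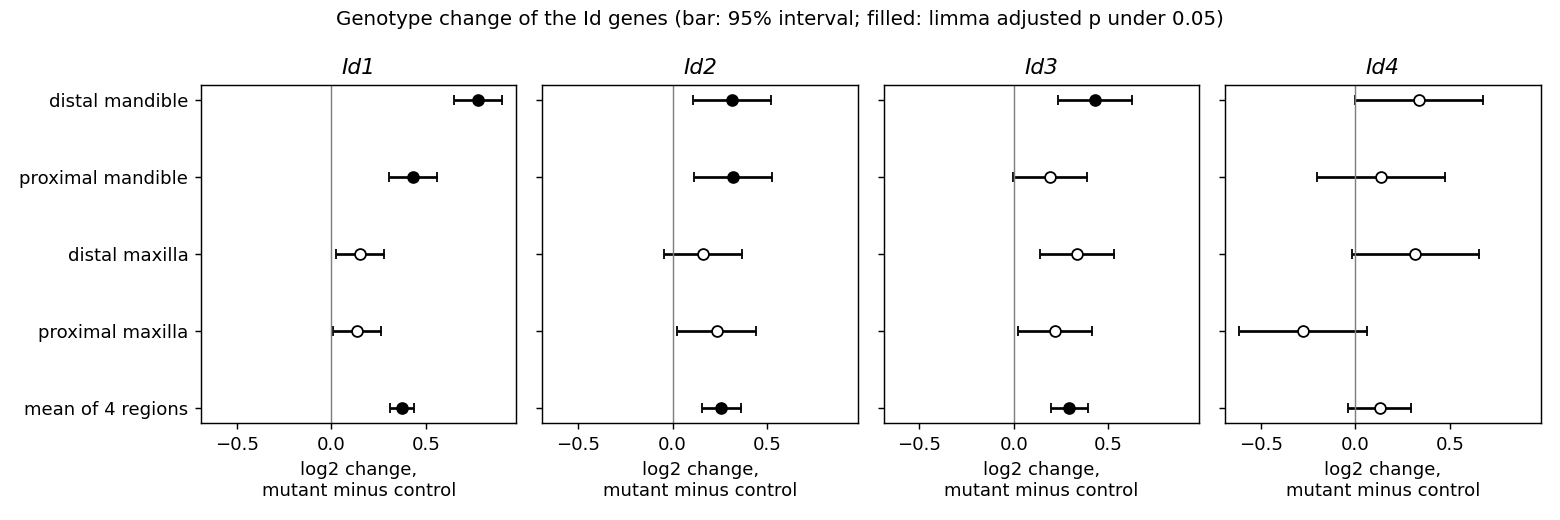
Log2 change between mutant and control (x axis) of each ID gene in the 4 regions and in their mean (y axis), with 95% intervals as bars and filled points where the limma adjusted p was under 0.05. Id1 reaches 0.78 in the distal mandible and 0.14 in the proximal maxilla. Id4 is -0.28 in the proximal maxilla with mutant array 3 included, and -0.06 without both mutant maxilla arrays numbered 3.

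**Figure D3:**
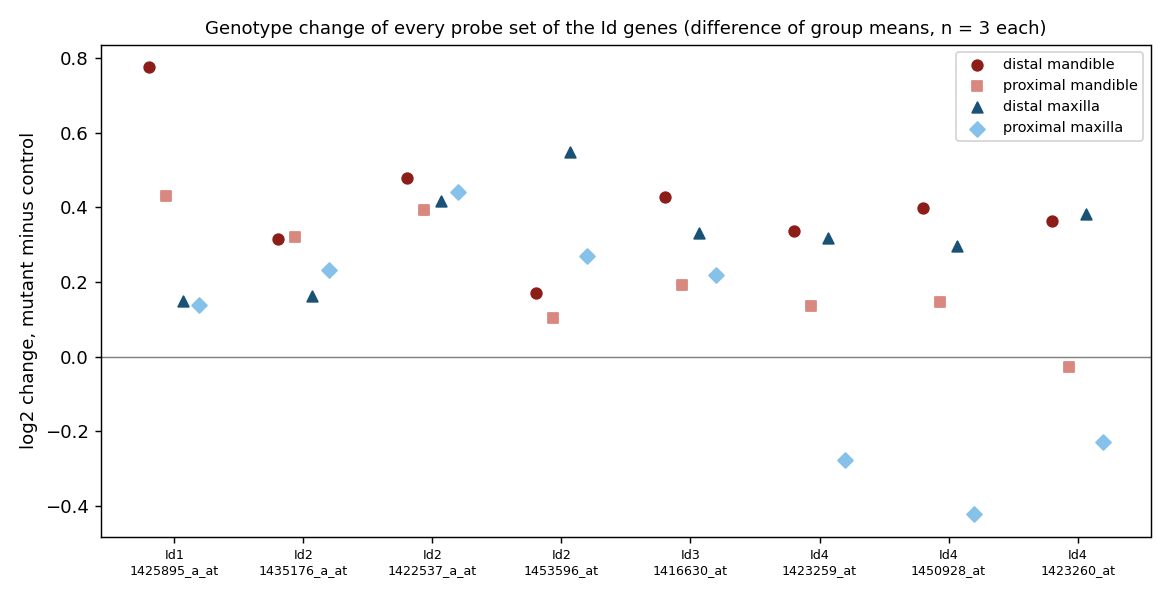
Difference of group means, mutant minus control (y axis, log2), for each of the 8 probe sets of the ID genes (x axis), with 1 symbol per region. The second Id2 probe set lies between 0.39 and 0.48 in the 4 regions, and the 3 Id4 probe sets are below 0 in the proximal maxilla on all arrays, mutant array 3 included.

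Over the members, the counts were 3 of 4 higher in the distal mandible, where 8.02% of all genes tested were called higher, and 2 of 4 in the proximal mandible, where 9.56% were. In the distal maxilla limma called 0 of 4 (2 at an unadjusted p under 0.05), with 2.96% of genes called in either direction and 1.84% higher. In the proximal maxilla it called 0 of 4 (3 at an unadjusted p under 0.05), with 10.5% called in either direction and 5.75% higher. In the mean over regions 3 of 4 were higher, against 25.2% of genes higher and 15.3% lower. In the distal maxilla the share of calls that were higher was 62.2%, and 49.9% after quantile normalization again, so the balance of directions there depends on scaling. None of the members was called different between ends in its genotype effect (2 at an unadjusted p under 0.05), with 0.115% of all genes called.

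Id4 had the widest range of group means among the members. In the mandible it averaged 11.69 (mutant) and 11.35 (control) distally, and 10.68 (mutant) and 10.54 (control) proximally. In the maxilla it averaged 12.20 (mutant) and 11.88 (control) distally, and 12.21 (mutant) and 12.48 (control) proximally. Steps between neighbouring group means of Id4 exceeded the pooled SD of 0.21 in 4 of 7 cases. For Id1 that was 4 of 7 (pooled SD 0.07), and for Id2 it was 2 of 7 (pooled SD 0.13).
Between the jaws, mandible minus maxilla was -1.02 ± 0.11 for Id4 in mutants (adjusted p = 9.23e-06) and -1.23 ± 0.11 in controls (adjusted p = 2.09e-07). In mutants Id4 was the 1 member called lower in the mandible, where 12.4% of genes were, and in controls Id1 and Id4 were, where 18.1% were. The share of calls that were higher in the mutant mandible than in the mutant maxilla was 31.7%, and 48.6% after quantile normalization again.

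Between the ends, distal minus proximal Id4 was 1.01 ± 0.16 in the mutant mandible (adjusted p = 0.000452) and 0.81 ± 0.16 in the control mandible (adjusted p = 0.00478). In the maxilla it was -0.01 ± 0.16 in mutants (adjusted p = 0.998) and -0.60 ± 0.16 in controls (adjusted p = 0.0203). The control maxilla call was lost without control distal maxilla array 3, when the difference was -0.42 (adjusted p = 0.164), and without control proximal maxilla array 1 (adjusted p = 0.0730) or 2 (adjusted p = 0.0579).
The mandible and the maxilla thus had opposite directions of Id4 in controls. A test of that difference, added after the directions had been seen, gave 1.02 ± 0.23 in mutants (adjusted p = 0.0404) and 1.41 ± 0.23 in controls (adjusted p = 0.00282). The mutant value was called in 11 of 22 alternatives, and without both mutant maxilla arrays numbered 3 it was 1.10 (adjusted p = 0.00403).
Id1 was higher distally in the mutant mandible by 0.22 ± 0.06 (adjusted p = 0.0302), a call lost without mutant distal mandible array 1, 2 or 3 or proximal array 2 (adjusted p between 0.0608 and 0.128), with quantile normalization again (0.0575) and in a fit on the arrays compared (0.0976). The numbers were read as pairing arrays of the 2 ends of the mandible. With them as a block, Id2 was called higher distally in the mutant mandible (0.25, adjusted p = 0.0172) and the control mandible (0.25, adjusted p = 0.0202). Without the block the adjusted p was 0.134 and 0.171. Of the members, 2 were called higher distally in the mutant mandible, where 5.01% of genes were, and 1 in the control mandible, where 2.91% were. In the mutant maxilla 0 were called by limma (1 at an unadjusted p under 0.05), where 1.24% of genes were called, and in the control maxilla 1 was lower, where 5.99% were. In the added test 1 member was called higher in mutants and 1 in controls, where 0.33% and 1.03% of genes were. Epithelial markers were called higher distally, 7 of 12 in the mutant mandible (median 0.94) and 9 of 12 in the control mandible (median 1.28). In the control maxilla, where Id4 was lower distally, 8 of 12 were called higher distally (median 1.24), against 4.9% of all genes. In the mutant maxilla 0 of 12 were called (median 0.64). The part of these markers in the end differences was not tested.

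E proteins are the partners that ID proteins bind. Of the 3 genes Tcf3 (E2A), Tcf4 and Tcf12 (HEB), 3 of 3 were higher in the mean over regions, with a median change of 0.22 against 0.02 for all genes. For this and the next lists, the background in the mean is the 25.2% of genes called higher and the 15.3% called lower. Tcf3 rose by 0.35 ± 0.04 (adjusted p = 4.82e-07), and its log2 change was 0.32, 0.40, 0.32 and 0.37 in the distal mandible, proximal mandible, distal maxilla and proximal maxilla, passing the test in each. Tcf4 rose by 0.22 ± 0.05 (adjusted p = 0.000883) and Tcf12 by 0.12 ± 0.03 (adjusted p = 0.00746). Tcf4 was called in both mandible regions (0.44 and 0.29) and Tcf12 in the proximal mandible (0.19). Protein was not measured.

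Of the tissue-specific bHLH factors that E proteins pair with, 4 of 20 tested were higher in the mean over regions, 3 were lower and 13 did not pass, with a median of -0.02. Twist1, a mesenchymal factor of the neural crest, rose by 0.70 ± 0.04 (adjusted p = 1.9e-09) with a mutant mean of 11.91 and a control mean of 10.88 in the distal mandible. Twist2 rose by 1.28 ± 0.14 (adjusted p = 1.61e-06), although in the distal maxilla it averaged 10.89 in mutants and 11.47 in controls and did not pass. Scx, the tendon factor, fell by 0.83 on the log2 scale (adjusted p = 1.82e-06), and Msc, a factor of head muscle precursors, fell by 0.97 (adjusted p = 0.00397). Of 4 tested cell cycle inhibitors linked to ID proteins in other cells, Cdkn1a (p21) fell by 0.62 (adjusted p = 0.00132) and 3 did not pass.

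BMP response genes other than ID genes did not move as one. Of 16 tested, 6 were higher, 1 was lower and 9 did not pass in the mean over regions, and their median change was 0.01, against 0.02 for all genes. Gata3, a factor of the arch mesenchyme, rose by 1.15 ± 0.15 (adjusted p = 9.2e-06), and Msx2, a homeobox target of BMP4, rose by 0.81 ± 0.12 (adjusted p = 2.07e-05). Tbx3, a T-box factor, rose by 0.64 ± 0.13 (adjusted p = 0.000592), and Smad6, the inhibitory SMAD of the BMP branch, rose by 0.27 ± 0.06 (adjusted p = 0.00217).
For Smad6 the rise was called in the distal mandible (0.46) and the distal maxilla (0.48), whereas the proximal mandible gave -0.10 and did not pass. Grem1, a secreted antagonist that BMP induces, fell by 0.27 (adjusted p = 0.0256).
Among BMP ligands 2 of 7 tested were higher and 2 lower. Bmp5 fell by 0.92 on the log2 scale (adjusted p = 2.41e-07) and Gdf10 by 0.52 (adjusted p = 7.13e-05), while Bmp7 rose by 0.20 ± 0.04 (adjusted p = 0.000547) and Bmp4 by 0.22 ± 0.08 (adjusted p = 0.0323). Of 12 tested receptors and SMADs, 5 were higher and 2 lower, among them Acvr2b, a type II receptor, up by 0.46 ± 0.06 (adjusted p = 1.72e-05), Acvr1, a type I receptor (ALK2), which fell by 0.32 (adjusted p = 2.7e-05), and the signal transducers Smad1, up by 0.12 ± 0.03 (adjusted p = 0.00103), and Smad5, up by 0.16 ± 0.04 (adjusted p = 0.0016). Of 12 tested antagonists 1 was higher and 3 lower, and Chrdl1, a chordin-like BMP inhibitor, fell by 1.19 (adjusted p = 1.45e-05) while Nbl1 rose by 0.42 ± 0.10 (adjusted p = 0.00225). Grem1 and Nog stand on both the response and the antagonist list, and Hand1, Hand2 and Atoh8 on both the response and the bHLH list.

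**Figure D4:**
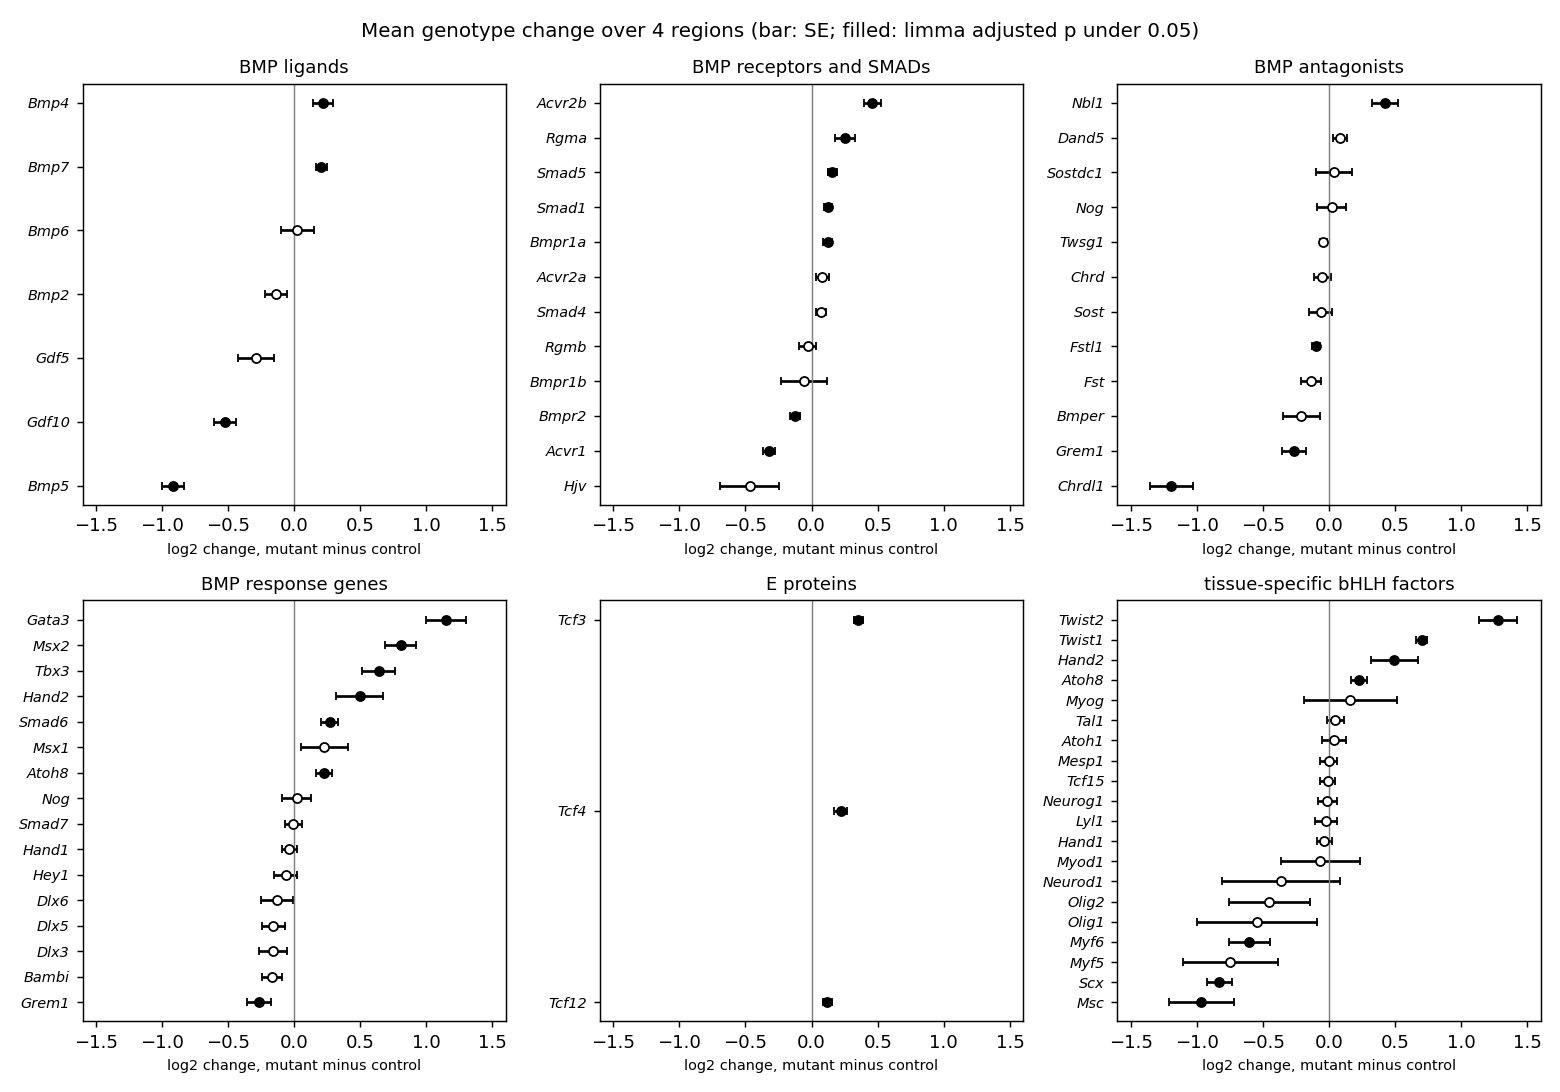
Mean log2 change over the 4 regions, mutant minus control (x axis), of each tested gene (y axis) in 6 lists: BMP ligands, receptors and SMADs, antagonists, response genes, E proteins and bHLH factors (bars: SE, filled points: limma adjusted p under 0.05). The 3 E proteins are filled and above 0, and the response genes run between 1.15 for Gata3 and -0.27 for Grem1.

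Markers of several cell types differed with genotype in the same tissue. The summed level of 11 neural crest mesenchyme markers was higher in mutants in each region (15.02 to 15.18, 14.77 to 14.80, 14.98 to 15.07 and 14.78 to 15.002 in the mutant distal mandible, proximal mandible, distal maxilla and proximal maxilla, against 14.82 to 14.88, 14.54 to 14.62, 14.61 to 14.895 and 14.13 to 14.41 in controls). Twist1 and Msx1 are on that list too, Scx is on the tendon list, and Myod1, Myog and Myf5 are on the muscle list, so these sums are not independent of the lists above. The summed level of 8 measured bone markers was lower in mutants and apart in both mandible regions and the proximal maxilla, at 12.46 to 12.99 in the distal mandible against 14.58 to 14.82 in controls, and overlapped in the distal maxilla, at 12.74 to 14.37 in mutants and 13.08 to 14.24 in controls. Tendon markers, 8 of 8 measured, summed to 11.97 to 12.29 in the mutant distal mandible and 12.27 to 12.84 in the mutant proximal mandible, against 13.28 to 13.44 and 13.63 to 13.86 in controls. Their mutant and control ranges overlapped in the distal maxilla (11.75 to 12.68 and 12.49 to 12.72) and the proximal maxilla (11.78 to 12.76 and 12.31 to 12.78).
Macrophage markers, 10 of 10 measured, summed to 11.39 to 12.20 in the mutant distal mandible and 12.19 to 12.88 in the mutant proximal mandible, against 12.64 to 12.94 and 13.08 to 13.26 in controls, and overlapped in the maxilla. The tendon and macrophage sums were thus apart in the mandible, where Id1 was called, and overlapped in the maxilla, where it was not. By its ranges, however, Id1 was also apart in the proximal maxilla. Cartilage markers, 12 of 12 measured, were lower and apart in the distal mandible (difference of mean sums -1.92), proximal mandible (-0.996) and proximal maxilla (-2.34), and muscle markers, 12 of 12 measured, in the distal mandible (-2.14). Neuron markers, 9 of 10 measured, were higher and apart in the mutant proximal mandible (11.94 to 12.26, against 10.99 to 11.81 in the control one, a difference of 0.62). The sum of glial markers, 7 of 9 measured, was lower and apart in the mutant distal mandible (-0.32). By gene, however, 1 of 7 glial markers was called lower there, and their median change was 0.08, so the list did not fall as a whole. The part of these markers in the ID changes was not tested.
The neuron sum was between 10.99 and 12.26 on all arrays of the mandible. In the maxilla they summed to 12.25 to 13.91 in the mutant distal and 13.19 to 14.57 in the mutant proximal part, against 12.38 to 13.14 and 13.88 to 14.86 in the control ones. The group means of the neuron sum and of Id4 were all higher in the maxilla than in the mandible, and so were those of the glial sum. Glial mean sums were 12.65 and 13.07 in the mutant maxilla (distal and proximal) and 12.72 and 13.42 in the control maxilla, above 11.51 and 12.14 in the mutant mandible and 11.83 and 11.94 in the control mandible. The part of neurons and glia in the Id4 pattern was not tested. Endothelial markers, 12 of 12 measured, of a cell type in which Id1 and Id3 are well known, summed to 13.17 to 13.30 in the mutant distal mandible and 13.15 to 13.30 in the control one, and lay apart in the proximal mandible (-0.20). The sum of epithelial markers, 12 of 12 measured, was higher and apart in the mutant proximal mandible (0.82) and overlapped in the other regions. By gene, 5 of 12 were called higher in the proximal mandible and 5 of 12 in the proximal maxilla, where 9.56% and 5.75% of all genes were. In the distal mandible 1 of 12 was, and in the distal maxilla 0 of 12, where 8.02% and 1.84% of all genes were.

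**Figure D5:**
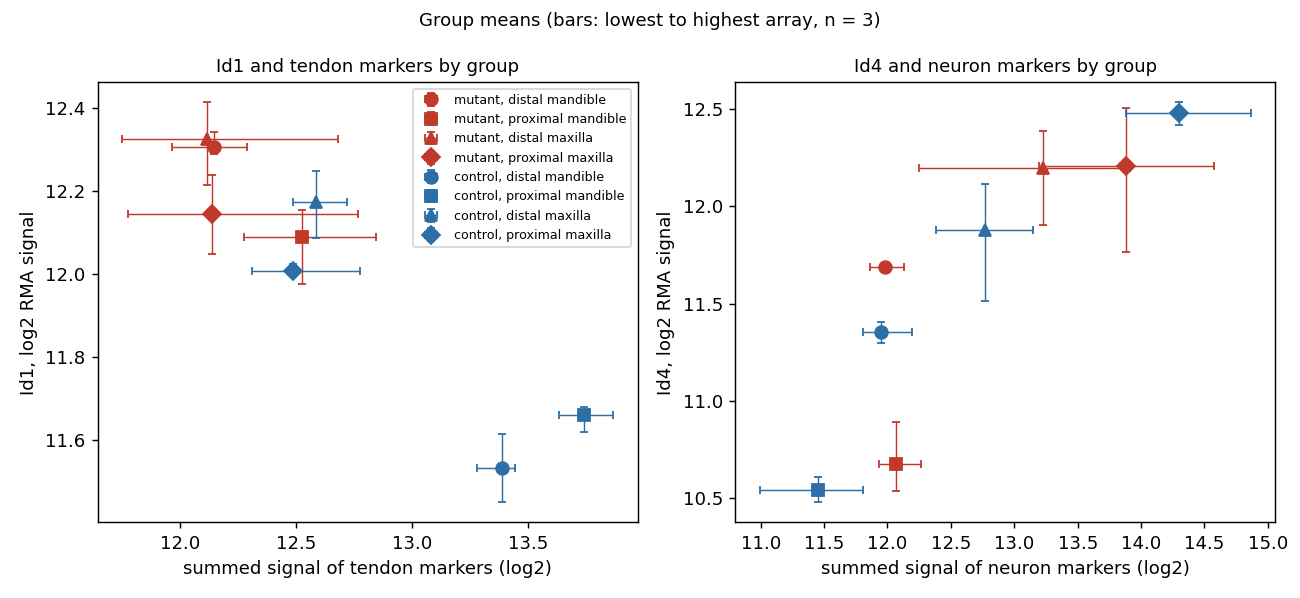
Group means of Id1 against the summed level of tendon markers (left) and of Id4 against that of neuron markers (right), all as log2 signal, with bars from the lowest to the highest array (n = 3), mutants in red and controls in blue. The control mandible groups sit apart at low Id1 and high tendon signal, and the maxilla groups sit at high Id4 and high neuron signal. Of all marker lists, these had the strongest correlation over 24 arrays with Id1 (-0.86) and Id4 (0.85). Other lists also correlated, such as bone with Id1 (-0.76) and glia with Id4 (0.67).

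Across the 8 group means, Id1 correlated with Id3 at 0.80 and with Id2 at 0.74, whereas Id4 correlated with Id1 at 0.52, with Id3 at 0.33 and with Id2 at 0.31. These correlations describe 8 groups that share mutants, controls and regions. Of the 2292 tested genes whose group means span at least 1, those most like Id1 were C130021I20Rik (0.944), Dclk3 (0.935) and Ifitm1 (0.930), and those most like Id2 were Ackr3 (0.969), Cachd1 (0.959) and Nkd1 (0.944). Id3 was most like Zfp811 (0.957), C920006O11Rik (0.949) and 3110070M22Rik (0.943). For Id4, with 2291 candidates, they were Ctnnd2 (0.979), Stmn2 (0.977) and Fmn2 (0.968), and Stmn2 is on the neuron marker list.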

How the data were processed

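RNA of 24 samples was measured on single-colour arrays. The authors deposited log2 signals made by RMA, per the submitters' processing notes, which give no version. The log base was read from their range of 3.29 to 14.86. No depth exists for arrays, so the 3 arrays per group limit the precision. Of 45101 probe sets, 34945 had 1 symbol, 932 several and 9147 none. A RefSeq table matched 34754 by gene identifier. Tested genes had a brightest probe set over the 40th percentile on 3 or more arrays.

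One mean per group was fitted over 24 arrays with limma 3.58.1 in R 4.3.3 (eBayes with trend, two-sided, Benjamini-Hochberg, threshold 0.05) for 13 comparisons, plus 2 added after the values were seen. The fit was tested on simulated data. Tables used pandas 2.3.3 and numpy 2.4.6, and plots matplotlib 3.10.9, under Python 3.11.15. Named were the 4 members, up to 4 called genes per list with the largest statistic, and the 3 genes most like each member. Genes that stand on several lists were named outside that rule, after their values were seen. Members and lists were chosen with earlier results of these data known.

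Replicate numbers, from the labels, were checked by correlating residuals of same-numbered arrays over the tested genes without 4 sex-linked genes. The lowest of the 3 correlations was 0.14, 0.19 and 0.21 between genotypes in the distal mandible, proximal mandible and distal maxilla and 0.18 in the mean, but -0.18 in the proximal maxilla. It was 0.17 between the mutant jaws, 0.27, 0.26 and 0.58 between ends of the control mandible, mutant mandible and mutant maxilla, -0.03 between the control jaws and 0.01 in the control maxilla. Numbers were read as pairs where it was over 0.1. With the sex-linked genes kept, the lowest correlation between genotypes in the distal mandible, proximal mandible, distal maxilla and mean was 0.02, 0.05, 0.09 and 0.08, so that the reading as pairs there depends on leaving them out, a choice made after the calls of the blocked fits had been seen. Alternatives were another normalization, array weights, other filters, the mean of probe sets, blocks, an Xist covariate, fits on the arrays compared and leaving out arrays. Id1 upstream sequence and protein sequences were not used here.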

Additional observations from a re-analysis of the deposited data

Results flagged for a closer look

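The genotype effect on Id1 differed between the jaws, being larger in the mandible than in the maxilla by 0.46 ± 0.06 on the log2 scale (limma interaction, adjusted p = 0.000234). It was called under each of 34 alternatives.

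The difference of Id4 between the ends was not the same in both jaws. In mutants the gap between mandible and maxilla was 1.02 ± 0.23 (adjusted p = 0.0404) and was called in 11 of 22 alternatives. Without both mutant maxilla arrays numbered 3 it was 1.10 (adjusted p = 0.00403). The adjusted p was 0.0761 to 0.134 without mutant distal mandible array 1, 2 or 3, proximal mandible array 1 or 3, distal maxilla array 1 or 3, or proximal maxilla array 1 or 2. In controls the directions were opposite, and the gap was 1.41 ± 0.23 (adjusted p = 0.00282). Both Id4 tests were added after the values were seen.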

How the results depend on the processing

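For the 4 members in 15 comparisons, 1181 of 1248 alternative values stayed on their side of the threshold. A call was lost by 32 and gained by 35, and 0 calls reversed. Results that were not called could change sign, as did the Id2 end difference between jaws in controls in 7 of 21 alternatives. Of the 18 called results, 0 changed sign. Over the alternatives, the members called in the distal mandible numbered 2 to 4 in place of 3, and in the mean over regions also 2 to 4. Members called in the proximal mandible were 1 in place of 2 with array weights, an Xist covariate or only the arrays compared. They were 3 with the fixed replicate block, and 1 to 2 with an array left out. In the distal maxilla they were 1 in place of 0 with array weights, the mean of probe sets or either replicate block, 3 without both mutant maxilla arrays numbered 3 (a setting added after seeing the data), and 0 to 1 with an array left out. The setting that gave 3 kept control distal maxilla array 3, which was low as well. In the proximal maxilla the members called were 1 with array weights or the mean of probe sets and 2 with the fixed replicate block. Between ends, the mutant mandible gave 1 in place of 2 with quantile normalization or only the arrays compared, and 1 to 2 with an array left out. The control mandible gave 2 in place of 1 with array weights or either replicate block. The control maxilla gave 2 in place of 1 with weights, the fixed block or only the arrays compared, 3 with the random block, and 0 to 1 with an array left out. The end difference between jaws gave, in mutants, 0 in place of 1 with quantile normalization or only the arrays compared, and 0 to 1 with an array left out. In controls it gave 2 in place of 1 with weights, either block or only the arrays compared. The cause was not tested. Over all genes, calls in the distal maxilla numbered 413, against 1087 with the fixed replicate block, 1194 with array weights and 23 with only the arrays compared. They were 408 with the mean of probe sets, 382 with the random block, 164 with the Xist covariate and 47 to 750 with an array left out. Without both mutant maxilla arrays numbered 3 they lay between 23 and 1194, the range over all alternatives. In the proximal maxilla there were 1470, against 2397 with the fixed block and 320 with only the arrays compared. In the distal mandible there were 2231, against 4268 with array weights, and in the mean 5655, against 2114 with regions averaged first and 4075 with the Xist covariate. Over all alternatives the calls ran from 1243 to 4268 in the distal and 1922 to 3703 in the proximal mandible (2777 in the main fit). Between ends they ran from 567 to 2008 in the mutant mandible (1258) and 699 to 2292 in the control maxilla (1518). For the end difference between jaws they ran from 33 to 189 in mutants (100) and 149 to 875 in controls (309). With the fixed and the random block, calls numbered 1522 and 1704 against 942 for the jaw difference of the genotype effect, 48 and 67 against 16 for its end difference, 332 and 439 against 173 between ends of the mutant maxilla, and 1156 and 1265 against 760 in the control mandible. The replicate block changed no other call of a member than those given here and in the results, and those of Id3 between control jaws (fixed block, adjusted p = 0.0349), Id1 between ends of the control maxilla (random block, 0.0472), Id2 there (0.0161 fixed, 0.0363 random), Id2 and Id3 in the proximal maxilla (fixed, 0.0218 and 0.0237) and Id1 for the end difference in controls (0.0474 fixed, 0.0357 random). Dim probes, such as the third of Id2, are limited by signal over background.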
